A study of Mus musculus with 24 samples.

Results

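The water and sodium channels of the collecting duct were followed through 9 genes: the aquaporins Aqp1, Aqp2, Aqp3 and Aqp4, the vasopressin receptor Avpr2, the subunits Scnn1a, Scnn1b and Scnn1g of the epithelial sodium channel ENaC, and Fxyd4, a small regulator of the sodium pump. Members were all probes annotated to these symbols, 15 probes of the 45281 on the array, where 18766 genes had a name. RNA of the whole kidney was profiled in 24 FVB mice, 4 in each group, and each mouse had an Illumina MouseWG-6 v2.0 array of its own. TgUmodC147W mice carry a transgene for uromodulin with the Cys147Trp mutation, a model of autosomal dominant tubulointerstitial kidney disease, and TgUmodwt mice carry the wild type transgene as an expression-matched control. The groups were TgUmodC147W and TgUmodwt males of 1 month (M1), females of 1 month (F1) and females of 2 months (F2). In both lines the HA-tagged transgene comes on top of the endogenous Umod gene and is driven by a fragment of the mouse Umod promoter, which is active in the thick ascending limb and not in the collecting duct.

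The collecting duct sets the final water and sodium content of urine. In its principal cells vasopressin binds the receptor encoded by Avpr2, cAMP rises, and Aqp2 water channels move to the apical membrane, while Aqp3 and Aqp4 let water leave through the basolateral side. Aldosterone acts in the same cells on ENaC, through which sodium enters from the urine, and Fxyd4 associates with the pump that removes this sodium. Aqp1 is the water channel of the proximal tubule, the thin descending limb, red cells and capillaries, and in a whole kidney it serves here as an aquaporin of other segments.

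Of the 15 probes, 12 were detected on all 24 arrays at a detection p under 0.01, the test of a probe against the negative controls of its array. Both probes of Avpr2 were detected on no array, with a lowest detection p of 0.0299 for the brighter probe and 0.269 for the dimmer one. Its mean intensity was 142 and 102, so the receptor was not well above background here and no comparison was made for it. The dimmer of the Aqp4 probes was also detected on no array, with a lowest p of 0.0128. The other 8 genes were tested with their brightest probe, on the neqc log2 scale, which is the log2 intensity after background correction and quantile normalization. Each of these probes had a mean raw intensity of 2164 or more over the 24 arrays, and that of Aqp4 ran between 902 and 10028. Levels of different probes are not compared with each other. For Aqp2, Avpr2 and Fxyd4 the identifiers of the brighter and the dimmer probe are exchanged between the deposited tables, so these probes are told apart only by brightness.

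Median raw intensity was 140 to 177 on the F2 arrays and 115 to 137 on the arrays of 1 month, without overlap. Arrays of a group correlated at 0.986 to 0.996. One array stood apart. TgUmodC147W F1 replicate 2 had Xist, the RNA of the inactive X chromosome, at 4.80 to 5.19 over 4 probes, where the other 15 female arrays had 9.00 to 12.74 and the 8 male arrays 4.70 to 5.79. The Y-linked Kdm5d was at 4.85 on this array, among the females. Calls of members and within-group correlations that use this array are given with and without it, while group means and ranges include it. Calls of other genes are given without it where stated. Umod itself differed between TgUmodC147W and TgUmodwt by 0.12 in M1, 0.09 in F1 and 0.11 in F2 (adjusted p = 0.219, 0.474 and 0.501), which measures the endogenous and transgenic transcripts together. Under scaling to a common median in place of quantile normalization, the split of called probes into higher and lower was 4820 and 2105 in M1, against 3764 and 3175 under quantile normalization, and in F2 it was 616 and 694, against 822 and 559. The directions given below for called members were the same under both.

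Upstream sequence is shown for Aqp2 and Scnn1b because, of the members that rose without overlap in M1, they are the pair whose levels followed each other most closely from array to array, with and without the array that lacks Xist. The 250 bases before the annotated start are from RefSeq on GRCm38.p6, at chr15:99578806-99579055 on the plus strand for Aqp2 and chr7:121864788-121865037 on the plus strand for Scnn1b. They are written 5′ to 3′ with matches in capitals to 3 motifs searched on both strands, the half-site of the cAMP response element CGTCA, the steroid receptor half-site AGAACA and the GATA site AGATAA.
Aqp2: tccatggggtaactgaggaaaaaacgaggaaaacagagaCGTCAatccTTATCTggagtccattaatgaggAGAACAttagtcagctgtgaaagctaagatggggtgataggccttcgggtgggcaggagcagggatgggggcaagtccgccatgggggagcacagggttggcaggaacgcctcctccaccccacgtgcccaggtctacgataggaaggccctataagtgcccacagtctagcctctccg
Scnn1b: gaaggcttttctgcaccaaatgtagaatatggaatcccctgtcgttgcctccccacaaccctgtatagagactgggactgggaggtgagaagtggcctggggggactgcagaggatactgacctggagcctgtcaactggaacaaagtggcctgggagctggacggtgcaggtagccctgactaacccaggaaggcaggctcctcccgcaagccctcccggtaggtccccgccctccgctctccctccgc
The Aqp2 window held 1 match to each motif, and these matches did not overlap. The Scnn1b window held no match to any of these motifs. Among 32851 windows of this length, 17.8% held the CRE half-site, 16.1% the steroid receptor half-site and 10.0% the GATA site, so each match is common.

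Aqp2, the vasopressin-regulated water channel of the apical membrane, was higher in TgUmodC147W kidneys of 1 month in both sexes. In M1 its log2 level was 13.24, 13.48, 13.53 and 12.97 in TgUmodC147W males, against 12.45, 12.69, 12.85 and 12.67 in TgUmodwt males. Every TgUmodC147W male lay above every TgUmodwt male. The means were 13.30 ± 0.26 in TgUmodC147W and 12.66 ± 0.16 in TgUmodwt males (SD, n = 4 each), a rise of 0.64 with SE 0.13, or 1.56-fold (limma, adjusted p = 0.00332). In F1 its level was 13.55, 13.50, 13.40 and 12.94 in TgUmodC147W females, against 12.58, 12.24, 12.69 and 12.64 in TgUmodwt females. The groups did not overlap, and replicate 4 was the lowest of the TgUmodC147W females. The difference was 0.81 with SE 0.15, or 1.75-fold (adjusted p = 0.00532), and without the array that lacks Xist it was 0.76 (adjusted p = 0.0193). The dimmer probe was 0.44 higher in M1 and 0.75 higher in F1 (adjusted p = 0.00493 and 0.0151), also with no overlap, and it was 0.67 higher in F1 without that array (adjusted p = 0.0472).

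At 2 months the difference in Aqp2 did not pass the test. TgUmodC147W F2 kidneys had 12.45, 12.08, 12.64 and 13.08, against 11.92, 12.38, 12.47 and 12.56 in TgUmodwt F2 kidneys. The groups overlapped, with TgUmodC147W replicates 3 and 4 above the TgUmodwt range. The difference was 0.23 with a 95% interval between -0.21 and 0.67 (adjusted p = 0.566), and 0.35 for the dimmer probe (adjusted p = 0.245).

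**Figure D1:**
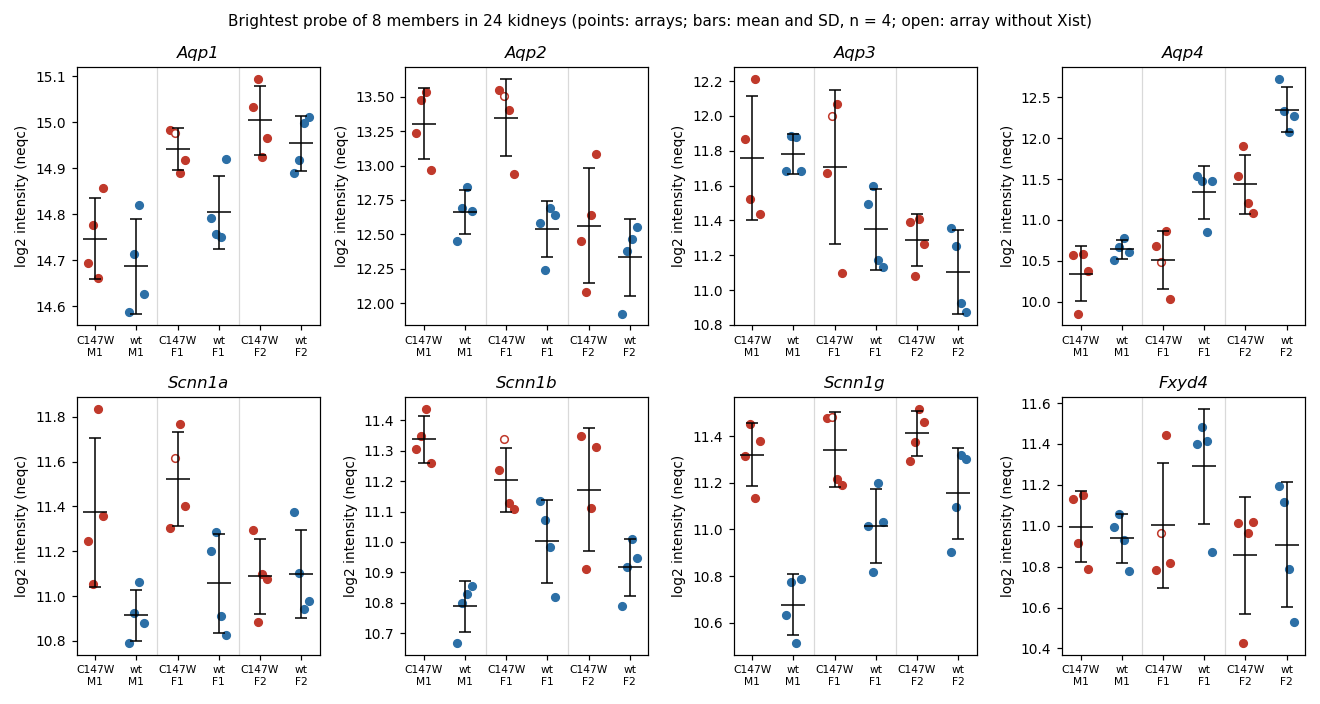
Log2 intensity (neqc) of the brightest probe of 8 members on the vertical axis, by group on the horizontal axis. Points are single kidneys, bars are the mean and SD of 4 kidneys, red is TgUmodC147W, blue is TgUmodwt, and the open point is the array without Xist. Aqp2 of the 1 month-old TgUmodC147W kidneys lay at 12.94 to 13.55, above all 1 month-old TgUmodwt kidneys, and Aqp4 was highest in TgUmodwt F2 kidneys at 12.08 to 12.72. The vertical axes differ between panels.

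Aqp4, a basolateral water channel of the principal cell, was lower in TgUmodC147W females. In F2 it was 11.54, 11.90, 11.21 and 11.09 in TgUmodC147W kidneys, against 12.72, 12.33, 12.08 and 12.27 in TgUmodwt kidneys. The groups did not overlap. The mean was 11.44 ± 0.36 in TgUmodC147W and 12.35 ± 0.27 in TgUmodwt females (SD, n = 4 each), a difference of -0.91 with SE 0.18, or 1.88-fold lower (adjusted p = 0.0124). In F1 it was 10.68, 10.49, 10.86 and 10.03 in TgUmodC147W kidneys, against 11.54, 11.48, 10.85 and 11.48 in TgUmodwt kidneys. The groups overlapped only through TgUmodwt replicate 3, which lay just below the highest TgUmodC147W kidney. The difference was -0.82 with SE 0.20, or 1.77-fold lower (adjusted p = 0.0182), and it was -0.81 without the array that lacks Xist (adjusted p = 0.0475). The call was lost without TgUmodwt replicate 1 (adjusted p = 0.0543) or replicate 4 (adjusted p = 0.0516). In M1 it was 10.57, 9.86, 10.58 and 10.37 in TgUmodC147W males, against 10.51, 10.67, 10.78 and 10.60 in TgUmodwt males. These groups overlapped, and the difference of -0.30, with an interval between -0.63 and 0.03, did not pass (adjusted p = 0.141).

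The other basolateral water channel of the principal cell, Aqp3, passed no genotype test. Its difference was -0.02 in M1 (95% interval -0.36 to 0.32), 0.36 in F1 (-0.09 to 0.81) and 0.18 in F2 (-0.10 to 0.46), with adjusted p of 0.925, 0.272 and 0.461. In F1 the TgUmodC147W kidneys had 11.67, 12.00, 12.07 and 11.10, against 11.49, 11.60, 11.17 and 11.13 in TgUmodwt kidneys. TgUmodC147W replicate 4 was the lowest of the 8, and without it the difference was 0.56 (adjusted p = 0.0285). Within F1, then, the lowest TgUmodC147W level of Aqp2, Aqp3 and Aqp4 came from the same kidney.

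Aqp1 differed by 0.06 in M1 (95% interval -0.13 to 0.25), 0.14 in F1 (-0.04 to 0.32) and 0.05 in F2 (-0.13 to 0.23), with adjusted p of 0.608, 0.288 and 0.787. Its 3 probes were not alike in M1. The dimmest was 13.48, 13.37, 13.70 and 13.54 in TgUmodC147W males, against 13.21, 13.23, 13.31 and 13.05 in TgUmodwt males. These did not overlap, and the probe passed with a difference of 0.32 (adjusted p = 0.0195), where the second probe differed by 0.14 (adjusted p = 0.366). Red cell genes, which share a source with part of Aqp1, fell in F2 in 4 of 4 tested with a median of -1.32, beside the 0.05 of Aqp1 there.

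The ENaC subunits were higher in TgUmodC147W males. Scnn1b, the beta subunit, was 11.30, 11.35, 11.44 and 11.26 in TgUmodC147W M1 kidneys, against 10.67, 10.80, 10.83 and 10.86 in TgUmodwt M1 kidneys. The groups did not overlap, and the difference was 0.55 with SE 0.08, or 1.46-fold (adjusted p = 0.000376). Scnn1g, the gamma subunit, was 11.31, 11.45, 11.14 and 11.38 in TgUmodC147W males, against 10.64, 10.78, 10.51 and 10.79 in TgUmodwt males. It did not overlap either, with a difference of 0.64, SE 0.10, or 1.56-fold (adjusted p = 0.000484). Scnn1a, the alpha subunit, was 11.25, 11.05, 11.84 and 11.36 in TgUmodC147W males, against 10.79, 10.92, 11.06 and 10.88 in TgUmodwt males. The lowest TgUmodC147W kidney and the highest TgUmodwt kidney were almost level, and the difference of 0.46, SE 0.15, or 1.37-fold, passed (adjusted p = 0.0308). That call was lost without TgUmodC147W replicate 4 (adjusted p = 0.0539) and without TgUmodwt replicate 1, 2 or 4 (0.0834, 0.061 and 0.0687). With no filter on dim probes, which adjusts over all 45281 probes, it was lost in M1 (adjusted p = 0.0682) and in F1 (0.0827).

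In F1 only the alpha subunit passed. Scnn1a was 11.31, 11.62, 11.77 and 11.40 in TgUmodC147W females, against 11.20, 11.29, 10.91 and 10.83 in TgUmodwt females. The ranges only just failed to overlap, and the difference was 0.47, SE 0.14, or 1.38-fold (adjusted p = 0.0419). Without the array that lacks Xist it was 0.43 and did not pass (adjusted p = 0.106), and it did not pass without TgUmodC147W replicate 3 (0.103) or without TgUmodwt replicate 1, 3 or 4 (0.0589, 0.0965 and 0.107). Scnn1g was 11.48, 11.48, 11.22 and 11.19 in TgUmodC147W females, against 11.01, 10.82, 11.20 and 11.03 in TgUmodwt females. Its difference of 0.33 (95% interval 0.08 to 0.57) had an adjusted p of 0.0742, and it was 0.28 without the array that lacks Xist (adjusted p = 0.181). Scnn1b differed by 0.20 (interval -0.02 to 0.42, adjusted p = 0.200), and by 0.16 without that array (adjusted p = 0.401).

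No ENaC subunit passed in F2. Scnn1b was 11.35, 10.91, 11.11 and 11.31 in TgUmodC147W females, against 10.79, 10.92, 11.01 and 10.95 in TgUmodwt females, and Scnn1g was 11.29, 11.38, 11.52 and 11.46, against 10.90, 11.10, 11.32 and 11.30. In both genes 3 of the 4 TgUmodC147W kidneys lay above the highest TgUmodwt kidney. The differences were 0.26 in each (adjusted p = 0.210 and 0.204). Scnn1a differed by -0.01, with an interval between -0.28 and 0.25 (adjusted p = 0.973).

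Fxyd4 passed no genotype test, with differences of 0.06 in M1, -0.29 in F1 and -0.05 in F2 (adjusted p = 0.701, 0.303 and 0.906). The interval in F1 was -0.67 to 0.10. Without the array that lacks Xist the F1 difference was -0.28 for Fxyd4 (adjusted p = 0.431), 0.26 for Aqp3 (0.502) and 0.13 for Aqp1 (0.443). The dimmer probe of Fxyd4 differed by -0.09, -0.32 and 0.12 in M1, F1 and F2 (adjusted p = 0.504, 0.225 and 0.801).

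**Figure D2:**
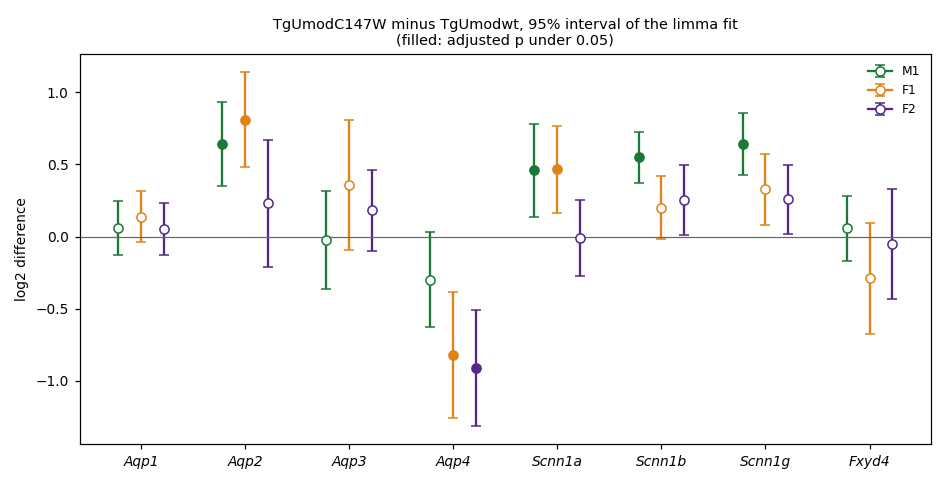
Difference in log2 level between TgUmodC147W and TgUmodwt kidneys on the vertical axis for 8 members, in M1, F1 and F2. Bars are 95% intervals of the limma fit on 4 against 4 arrays and filled points have an adjusted p under 0.05. Aqp2 and the ENaC subunits lay above 0 in M1, with differences of 0.46 to 0.64, and Aqp4 lay below 0 in F1 and F2, at -0.82 and -0.91.

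Counted together, 4 of the 8 members tested rose and 0 fell in TgUmodC147W M1 kidneys, where 21.9% of all genes tested rose and 15.4% fell. The median difference of the members was 0.26, against 0.04 over all genes. In F1, 2 rose and 1 fell, where 10.4% of all genes rose and 7.62% fell, and the medians were 0.26 for the members and 0.01 for all genes. Without the array that lacks Xist, 1 rose and 1 fell, and the number called was 1 without TgUmodwt F1 replicate 1 or without TgUmodwt F1 replicate 4. In F2, 0 rose and 1 fell, where 5.42% of all genes rose and 3.05% fell, with medians of 0.12 and -0.01. Groups without overlap were common among all genes tested, at 3809 of 10130 in M1, 2349 of 9971 in F1 and 1589 of 9850 in F2. Of the members' brightest probes these were Aqp2, Scnn1b and Scnn1g in M1, Aqp2 and Scnn1a in F1, and Aqp4 in F2. In whole-kidney RNA, fewer cells of a type and less RNA per cell cannot be told apart.

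The difference between F2 and F1 kidneys was taken within each genotype. Aqp4 was higher at 2 months in both. In TgUmodC147W females it was 11.54, 11.90, 11.21 and 11.09 in F2 and 10.68, 10.49, 10.86 and 10.03 in F1, without overlap. The difference was 0.92 with SE 0.21, or 1.89-fold (adjusted p = 0.0167), and 0.91 without the array that lacks Xist (adjusted p = 0.0428). In TgUmodwt females it was 12.72, 12.33, 12.08 and 12.27 in F2 and 11.54, 11.48, 10.85 and 11.48 in F1, again without overlap. The difference was 1.01 with SE 0.17, or 2.02-fold (adjusted p = 0.0112). These comparisons share arrays with those of genotype, so the values stand side by side and are not independent of them. Every F2 array also had a higher median raw intensity than every F1 array, so age and array signal go together here. The part of array signal in the differences with age was not tested.

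By group, Aqp4 was highest in TgUmodwt F2 kidneys at 12.35 ± 0.27, followed by TgUmodC147W F2 at 11.44 ± 0.36, TgUmodwt F1 at 11.34 ± 0.33, TgUmodwt M1 at 10.64 ± 0.12, TgUmodC147W F1 at 10.51 ± 0.36 and TgUmodC147W M1 at 10.34 ± 0.34 (SD, n = 4 each). TgUmodwt F2 kidneys lay above all other arrays. TgUmodC147W F2 and TgUmodwt F1 kidneys overlapped, and so did the 3 lowest groups. All TgUmodwt F1 kidneys, at 10.85 to 11.54, lay above all TgUmodwt M1 kidneys, at 10.51 to 10.78, which is given as a description. For Aqp2 the order was TgUmodC147W F1 at 13.35, TgUmodC147W M1 at 13.30, TgUmodwt M1 at 12.66, TgUmodC147W F2 at 12.56, TgUmodwt F1 at 12.54 and TgUmodwt F2 at 12.33. The first pair overlapped, the last 4 groups overlapped among themselves, and the TgUmodC147W F2 range crossed both.

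Aqp2 was lower at 2 months in TgUmodC147W females. Its level was 12.45, 12.08, 12.64 and 13.08 in F2 and 13.55, 13.50, 13.40 and 12.94 in F1. Only F2 replicate 4 overlapped with F1, and it exceeded only F1 replicate 4. The difference was -0.79 with SE 0.20, or 1.72-fold lower (adjusted p = 0.0309). It was -0.73 and no longer passed without the array that lacks Xist (adjusted p = 0.0809), and it was not called without F1 replicate 1 or 3 (0.079 and 0.0728), without F2 replicate 1, 2 or 3 (0.0811, 0.0616 and 0.0611), or by the dimmer probe (-0.73, adjusted p = 0.0523). In TgUmodwt females the brighter probe differed by -0.21 (95% interval -0.53 to 0.12, adjusted p = 0.530). The dimmer probe there did not overlap between ages, at 10.63 to 10.93 in F2 and 11.04 to 11.28 in F1, and differed by -0.33 (adjusted p = 0.110).

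Scnn1a was 11.29, 10.89, 11.10 and 11.08 in TgUmodC147W F2 kidneys and 11.31, 11.62, 11.77 and 11.40 in F1 kidneys. The ages only just failed to overlap, with a difference of -0.43, SE 0.13, or 1.35-fold lower (adjusted p = 0.0466). Without the array that lacks Xist it was -0.40 and did not pass (adjusted p = 0.114), and it did not pass without F1 replicate 3 (0.111) or F2 replicate 2, 3 or 4 (0.098, 0.095 and 0.0938). In TgUmodwt females Scnn1a differed by 0.04 (interval -0.25 to 0.33, adjusted p = 0.911). Scnn1b and Scnn1g differed between ages by -0.03 and 0.07 in TgUmodC147W females and by -0.09 and 0.14 in TgUmodwt females, with no call.

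Aqp3 was lower by 0.42 in TgUmodC147W and by 0.25 in TgUmodwt females at 2 months, and neither passed (adjusted p = 0.183 and 0.428). Without TgUmodC147W F1 replicate 4, its lowest F1 kidney of that genotype, the TgUmodC147W difference was -0.63 (adjusted p = 0.0112). Fxyd4 differed by -0.15 in TgUmodC147W (adjusted p = 0.642) and by -0.38 in TgUmodwt females (adjusted p = 0.291). Aqp1 differed by 0.06 in TgUmodC147W (adjusted p = 0.678) and by 0.15 in TgUmodwt females (adjusted p = 0.390). Leaving out the array that lacks Xist gave -0.33 for Aqp3, -0.16 for Fxyd4, 0.07 for Aqp1, 0.01 for Scnn1b and 0.12 for Scnn1g in TgUmodC147W females, with no call.

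**Figure D3:**
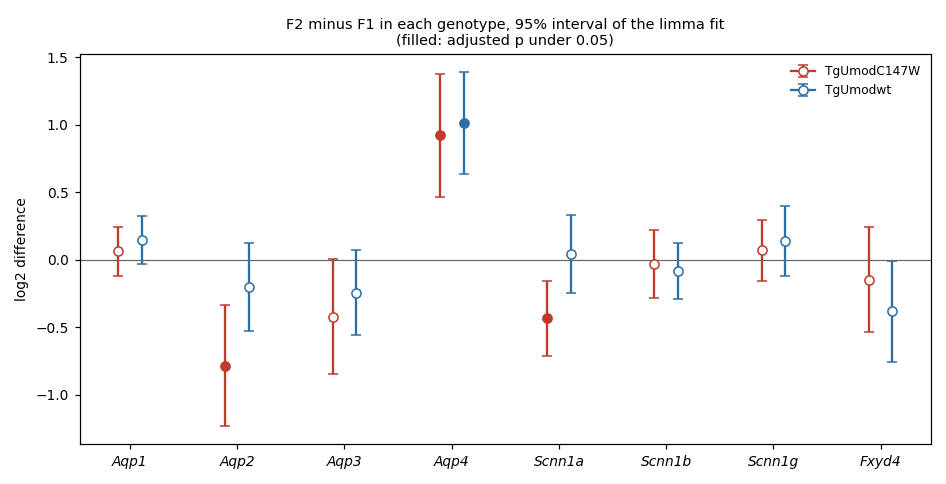
Difference in log2 level between F2 and F1 kidneys on the vertical axis for 8 members, in TgUmodC147W (red) and TgUmodwt (blue) females. Bars are 95% intervals of the limma fit on 4 against 4 arrays and filled points have an adjusted p under 0.05. Aqp4 lay above 0 in both genotypes, at 0.92 and 1.01, and Aqp2 and Scnn1a passed below 0 only in TgUmodC147W females, a difference between genotypes that did not pass its own test.

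In TgUmodC147W females 1 member rose and 2 fell between F1 and F2, where 6.19% of all genes rose and 6.92% fell. The median of the members was -0.09, against -0.02 over all genes. Without the array that lacks Xist only the rise of Aqp4 was left, and 1 member was called also without F1 replicate 3 or without F2 replicate 2 or 3. In TgUmodwt females 1 member rose and 0 fell, where 1.62% rose and 1.84% fell, with a median of -0.02 for the members and 0.00 for all genes. The ages did not overlap in 2072 of 10009 genes tested in TgUmodC147W and in 1110 of 9752 in TgUmodwt females.

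The differences between the genotype effects were tested as interactions. For age, the effect in F2 minus that in F1 was called in 0 of 8 members, where 1.30% of all genes were called in either direction. At an unadjusted p under 0.05, 2 of 8 members and 13.2% of all genes passed. The members were Scnn1a, with -0.48 (95% interval -0.87 to -0.08, adjusted p = 0.280), and Aqp2, with -0.58 (-1.15 to -0.01, adjusted p = 0.383). For Aqp4 the interaction with age was -0.09 (interval -0.71 to 0.53, adjusted p = 0.937). For sex, the effect in F1 minus that in M1 was again called in 0 of 8 members, where 7.69% of all genes were called. At an unadjusted p under 0.05, 2 of 8 members and 22.3% of all genes passed. Scnn1b had -0.35 (interval -0.60 to -0.09, adjusted p = 0.0914) and Scnn1g -0.32 (-0.63 to -0.0028, adjusted p = 0.221). Without TgUmodwt F1 replicate 4 the interaction of Scnn1b was -0.41 and passed (adjusted p = 0.0441). Aqp4 had -0.52 (interval -1.09 to 0.04, adjusted p = 0.263) and Scnn1a 0.01 (-0.44 to 0.46, adjusted p = 0.991). The calls of Scnn1b and Scnn1g in males and not in females were therefore not shown to differ between the sexes. Neither interaction had a called member without the array that lacks Xist. The interaction with age was then -0.44 for Scnn1a (adjusted p = 0.410), -0.53 for Aqp2 (0.525) and -0.10 for Aqp4 (0.948), and that with sex was -0.39 for Scnn1b (0.0671), -0.36 for Scnn1g (0.175), -0.52 for Aqp4 (0.311) and -0.02 for Scnn1a (0.965).

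Within groups, the members varied together in part. Over the deviations of the 24 arrays from their group means, which share the normalization of the arrays, Aqp3 followed Scnn1a (r = 0.776) and Fxyd4 (r = 0.713), and Scnn1a followed Fxyd4 (r = 0.655). Aqp2 followed Scnn1b (r = 0.577) and Scnn1g (r = 0.473). Scnn1a and Scnn1g, subunits of one channel, went apart (r = -0.66), and so did Aqp1 and Fxyd4 (r = -0.659). Over the 23 arrays without the one that lacks Xist these values were 0.780, 0.756, 0.665, 0.564, 0.455, -0.719 and -0.66, in the same order. Among 10377 genes the closest to Aqp2 by this measure were Vegfb (0.898), Mif (0.88), Tysnd1 (0.863), Abca7 (0.848) and Ugt1a2 (0.846). Of all 10377, Scnn1b ranked 561 and Scnn1g 1081 by r to Aqp2, and Aqp2 ranked 136 by r to Scnn1b. The closest to Scnn1b were Olfm1 (0.763), Mospd3 (0.761), Ctnnbip1 (0.75), Mrto4 (0.742) and Qrsl1 (0.738), and to Aqp1 they were Zfp292 (0.778), S100pbp (0.754), Cop1 (0.75), Akap11 (0.723) and Mphosph9 (0.714). Leaving out the array that lacks Xist, 3 of these 5 genes stayed among the closest 5 for Aqp2, 2 for Scnn1b and 3 for Aqp1.

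**Figure D4:**
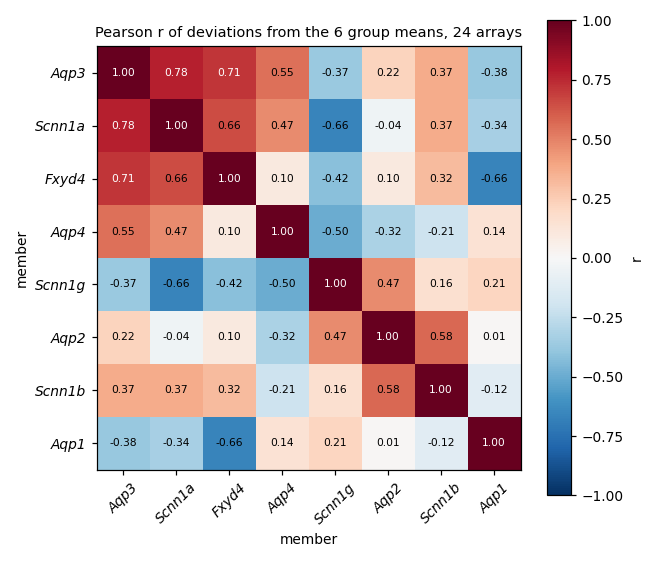
Pearson correlation between members of their deviations from the 6 group means, over 24 arrays, with members on both axes and red for positive and blue for negative values. Aqp3, Scnn1a and Fxyd4 formed a block with r between 0.655 and 0.776, and Scnn1g was negative to each of them.

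Other genes of the vasopressin and water pathway were counted as well. Of 14 tested besides the members, 5 rose and 0 fell in M1, where 21.9% of all genes rose and 15.4% fell. Their median was 0.17. Adcy3, Prkar2a and Ptger4 of this list were detected on no array. One of the 5, Creb1, was detected on 1 of 4 TgUmodC147W and 0 of 4 TgUmodwt males. The largest were Adcy6, an adenylyl cyclase that makes cAMP in the collecting duct, with 0.66 (1.59-fold, adjusted p = 0.00297), and Ptger3, a prostaglandin E2 receptor that lowers cAMP, with 0.56 (1.48-fold, adjusted p = 0.0083). In F1 none of 14 passed in either direction, and in F2 only Ptger3 did, with 0.48 (adjusted p = 0.0169). Of all genes, 10.4% rose and 7.62% fell in F1, and 5.42% and 3.05% in F2. Between F2 and F1 in TgUmodC147W females 1 of 13 rose, Akap7, an anchor of protein kinase A, by 0.42 (adjusted p = 0.0424). In that comparison 1 fell, Ednrb, an endothelin receptor, by 0.66 (adjusted p = 0.00366). Among all genes 6.19% rose and 6.92% fell there. With the array that lacks Xist left out, Akap7 no longer passed (0.41, adjusted p = 0.093) and Ednrb did (-0.72, adjusted p = 0.00573).

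Of 17 genes of the ENaC and aldosterone pathway besides the members, 8 rose and 1 fell in M1, with a median of 0.17. Among all genes 21.9% rose and 15.4% fell there. One of the 8, Kcnj1, is also counted below among the thick ascending limb genes. Nr3c2, Tmprss4 and Kcnma1 of this list were detected on no array. The largest were St14, a membrane protease (matriptase), with 0.91 (1.88-fold, adjusted p = 0.00145), and Sgk1, the aldosterone-induced kinase that holds ENaC at the membrane, with 0.85 (1.80-fold, adjusted p = 0.00085). The gene that fell, named after its value was seen, was Prss8, a protease (prostasin) that activates ENaC, with -0.35 (adjusted p = 0.00819). In F1, where 10.4% of all genes rose and 7.62% fell, 4 rose and 0 fell, and 3 rose without the array that lacks Xist. They were led by Tsc22d3, the steroid-induced leucine zipper protein, with 0.79 (adjusted p = 0.00385), and Usp2, a ubiquitin protease, with 0.68 (adjusted p = 0.007), and both kept their call without that array (adjusted p = 0.0093 and 0.0229). Usp2 was also called in the interaction with sex, with 1.09 (adjusted p = 0.0191), and 1.08 without that array (adjusted p = 0.032). In F2 none of the 17 passed in either direction, where 5.42% of all genes rose and 3.05% fell. Tsc22d3 fell by 0.83 in TgUmodC147W F2 against F1 kidneys (adjusted p = 0.00655), and by 0.87 without that array (adjusted p = 0.0141).

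Of the 4 other aquaporins tested, Aqp7, a glycerol and water channel of the proximal tubule, fell by 0.72 in M1 (adjusted p = 6.14e-05) and by 0.72 in F1 (adjusted p = 0.0101). Aqp8 was at least 1.14-fold lower in F1 (adjusted p = 0.000981), a bound because it was detected on 0 of 4 TgUmodC147W and 3 of 4 TgUmodwt arrays. The bound takes the lowest detected signal of each array in place of the undetected one. Without the array that lacks Xist both still passed in F1 (adjusted p = 0.0321 and 0.00341). None of the 4 passed in F2, and none rose in a genotype comparison. Among all genes 21.9% rose and 15.4% fell in M1, 10.4% and 7.62% in F1, and 5.42% and 3.05% in F2. Aqp7 was 0.54 higher in F2 than in F1 TgUmodC147W kidneys (adjusted p = 0.0388), and without the array that lacks Xist no aquaporin of this list passed there.

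Genes of the medullary solute gradient, along which the water channels carry water, were also counted. Of 7 tested, 4 passed upwards and 0 fell in M1, where 21.9% of all genes rose and 15.4% fell. Slc14a1, the urea transporter of the vasa recta and red cells, was detected on 3 of 4 TgUmodC147W and 0 of 4 TgUmodwt males, so no fold is given for it (adjusted p = 0.00102). Bsnd, a chloride channel subunit, rose by 0.60 (adjusted p = 0.000339). In F1, 4 passed upwards and 0 fell, led by Slc14a2, the urea transporter of the collecting duct, with 0.94 (1.92-fold, adjusted p = 0.0124). Slc14a1 was among them (adjusted p = 0.0049), detected on 1 of 4 TgUmodC147W and 0 of 4 TgUmodwt arrays. Of all genes, 10.4% rose and 7.62% fell in F1. Leaving out the array that lacks Xist, 2 passed upwards, Slc14a2 with 0.87 (adjusted p = 0.0397) and Slc14a1 (adjusted p = 0.00981), and 1 fell, Slc5a3 with -0.53 (adjusted p = 0.0446), named after its value was seen. In F2 none passed. Slc14a2 fell by 0.95 in TgUmodC147W F2 against F1 kidneys (adjusted p = 0.0174), while Slc5a3, an inositol transporter, rose by 0.75 (adjusted p = 0.0105). Once the array that lacks Xist was left out, Slc14a2 no longer passed there (-0.87, adjusted p = 0.0508) and Slc5a3 did (0.88, adjusted p = 0.00411). Slc6a12, a betaine transporter, was called in the interaction with sex, with -0.88 (adjusted p = 0.0356), and did not pass without that array (-0.77, adjusted p = 0.0665).

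Markers of the principal cell besides the members had a median difference of 0.16 in M1, 0.16 in F1 and -0.05 in F2. Of 4 tested, 1 rose in M1, Tfcp2l1 with 0.25 (adjusted p = 0.0341), 1 rose in F1, Gata3 with 0.39 (adjusted p = 0.0239, and 0.0302 without the array that lacks Xist), and none passed in F2. Among all genes 21.9% rose and 15.4% fell in M1, 10.4% and 7.62% in F1, and 5.42% and 3.05% in F2. The mean log2 level of the whole principal cell list, members included, was 10.93 to 11.08 in TgUmodC147W M1 and 10.76 to 10.89 in TgUmodwt M1 kidneys. It was 10.90 to 11.21 in TgUmodC147W F1, against 10.94 to 11.06 in TgUmodwt F1, and 10.96 to 11.04 in TgUmodC147W F2, against 11.05 to 11.14 in TgUmodwt F2. Of that list Ehf and Calb1 were not detected. Among its 9 detected genes are the members Aqp2, Aqp3, Aqp4, Scnn1g and Fxyd4, so this mean in part restates their levels. In F2 the only gene of the list called was Aqp4, with -0.91 (adjusted p = 0.0124). Intercalated cell markers, the neighbours of principal cells, rose in 4 of 10 in M1, led by Slc26a4 with 0.56 (adjusted p = 0.00134) and Slc4a9 with 0.53 (adjusted p = 0.0128). One of the 4, Insrr, was detected on no TgUmodwt male. None of 9 passed in F1 and 2 of 9 fell in F2, Slc4a1 by 0.48 (adjusted p = 0.0173), which red cells also express, and Foxi1 by 0.42 (adjusted p = 0.0255).

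Markers of other cells were counted in the same comparisons. Among all genes 21.9% rose and 15.4% fell in M1, 10.4% and 7.62% in F1, and 5.42% and 3.05% in F2. Thick ascending limb genes rose in 6 of 7 in M1, 3 of 7 in F1 and 1 of 7 in F2, led by Sostdc1 with 0.93 in M1 and 0.80 in F1 (adjusted p = 3.24e-05 and 0.00354). Their mean level was 13.02 to 13.19 in TgUmodC147W M1, against 12.45 to 12.60 in TgUmodwt M1. Endothelial genes rose in 7 of 8 in M1 and in 1 each in F1 and F2, where Slc14a1, counted above among the solute genes and undetected in TgUmodwt kidneys, was 1 of the 7 in M1 and the 1 in F1. Macrophage genes rose in 8 of 9 in M1, 8 of 9 in F1 and 7 of 8 in F2, led by Lyz2 with 1.65, 2.19 and 2.51. Of these, 3 in M1, 3 in F1 and 2 in F2 were detected on no TgUmodwt array of the comparison. The mean macrophage level was 8.20 to 8.77 in TgUmodC147W M1, against 7.45 to 7.70 in TgUmodwt M1, and 8.80 to 9.04 in TgUmodC147W F2, against 7.50 to 7.82 in TgUmodwt F2. Proximal tubule genes fell in 1 of 9 in M1, 2 of 9 in F1 and 1 of 9 in F2. Distal convoluted tubule genes rose in 3 of 4 in M1 and 1 of 4 fell in F1. Red cell genes rose in 2 of 4 in M1 and passed in none in F1. In F1 without the array that lacks Xist, thick ascending limb genes rose in 2 of 7 and macrophage genes in 7 of 9. No proximal tubule gene passed, and 1 of 4 distal convoluted tubule genes fell. Sostdc1 was then 0.72 and Lyz2 1.95 higher (adjusted p = 0.0113 and 0.00242). With age in TgUmodC147W females, red cell genes fell in 3 of 4 and thick ascending limb genes in 1 of 7. Of all genes, 6.19% rose and 6.92% fell there. In that comparison 1 macrophage gene rose and 1 fell, Cd163, which was detected on 0 of 4 F2 and 2 of 4 F1 arrays. Without the array that lacks Xist, 2 macrophage genes rose and 1 fell there. The red cell and thick ascending limb counts stayed the same. Not detected on any array were Kdr of the endothelial, Atp6v0d2 of the intercalated cell and Calb1 of the distal convoluted tubule list. The part of these shifts in the differences of the channels was not tested.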

How the data were processed

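The authors extracted RNA with TRIzol, removed DNA with DNase, labelled cRNA with biotin, hybridised it to the bead arrays and read these in GenomeStudio. The deposited non-normalized table holds linear intensity with no normalization and, beside it, GenomeStudio's detection p-value. The authors' value table holds intensity after cubic spline normalization and was an alternative. The BeadChip of each array is not given in the sources used here, so no chip was fitted as a batch.

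Rows of both tables were matched by rank, since the IDs of 13666 of 45281 probes differ between them. A probe was named where both IDs gave the same gene, 34043 probes of 18766 genes, through the platform annotation and the mouse gene table of GRCm38.p6. Intensities went through neqc (offset 16, quantile over 24 arrays) of limma 3.58.1 (R 4.3.3). For each comparison limma was run on the arrays concerned, using every probe that reached a detection p under 0.01 on 1 or more of these, and p-values were adjusted by Benjamini-Hochberg over all of these probes. A call is an adjusted p under 0.05, and genes with several probes are represented by the brightest on average. Percentages of all genes use the same rule.

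All 9 members and their 15 probes are given. Other genes are named where they are among the 2 largest changes past the test in a list and comparison, or the 5 genes closest to a member. Members and lists were chosen with earlier results of these data known. The number of arrays limits the precision. Upstream windows came from the RefSeq promoter table, which was searched as letters in pandas 2.3.3, and figures were drawn with matplotlib 3.10.9 in Python 3.11.15. The labels do not say what replicate numbers share. Deviations of same-numbered arrays correlated at over 0.1 in all 4 pairs (0.119 to 0.356) only with age in TgUmodwt females. There replicates 3 and 4 correlated best with their own number, and replicates 1 and 2 did not. The main fits took no account of replicate number in any comparison, and a replicate block was run as an alternative. All steps were tested on simulated data.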

Additional observations from a re-analysis of the deposited data

Results flagged for a closer look

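Among 72 sets of 4 kidneys (12 detected probes in 6 groups), 4 held 1 kidney farther from the rest than Dixon's 95% limit allows. This is close to the 1 in 20 that chance gives, and sets that share kidneys are not independent. The dimmer probe of Aqp2 was 11.32 in TgUmodC147W F1 replicate 4, with the other kidneys of the group at 12.03 to 12.14. Aqp4 was 10.85 in TgUmodwt F1 replicate 3, against 11.48 to 11.54. Fxyd4 was 10.43 in TgUmodC147W F2 replicate 2, against 10.96 to 11.02, and 10.87 in TgUmodwt F1 replicate 4, against 11.40 to 11.48. Leaving out TgUmodwt F1 replicate 3 made the difference of Aqp4 in F1 larger, at -0.98, and leaving out TgUmodC147W F1 replicate 4 brought Aqp3 past the test, as given above.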

How the results depend on the processing

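No value of a called member changed sign under any alternative, and among the values of single members 1292 kept their side of the threshold, 32 lost a call and 8 gained one. The calls of Aqp2 in M1 and F1, of Scnn1b and Scnn1g in M1, and of Aqp4 in F2 and in both age comparisons held under every alternative. The number of members called in TgUmodC147W females between F1 and F2 was 1, not 3, with no filter on dim probes and with a replicate block. Leaving out each array in turn gave 3 to 4 members in M1, 1 to 4 in F1, 1 to 1 in F2, 1 to 4 with age in TgUmodC147W, 1 to 1 with age in TgUmodwt females, 0 to 0 in the interaction with age and 0 to 1 in that with sex. Scnn1g in F1 gained a call with the authors' value table (adjusted p = 0.0454), without background correction (0.0431), in 1 fit over 24 arrays (0.031) and with a trended and robust prior (0.0386). Same-numbered arrays correlated at -0.142 to 0.356 over 20 pairs in their deviations from the group means, with the own number closest in 6. With the replicate block Scnn1a lost its call in F1 (adjusted p = 0.0663) and with age in TgUmodC147W (0.103), and so did Aqp2 there (0.0798). With age in TgUmodwt females, where all 4 pairs correlated at over 0.1, the block gave 380 higher and 378 lower probes (273 and 284 without it). There 1 member was called either way, Aqp4 (adjusted p = 0.00259). Scaling to a common median put the median of all probes at 0.11 in M1 and 0.15 with age in TgUmodwt females, beside 0.59 for Aqp2 in M1 and 1.20 for Aqp4 with age. It gave 1598 higher and 789 lower probes with age in TgUmodC147W (1191 and 1159 with quantile normalization), 1176 and 192 with age in TgUmodwt (273 and 284), 102 and 123 in the interaction with age (162 and 87) and 473 and 1003 in that with sex (723 and 701). Under this scaling Scnn1a lost its call in F1 (0.0752) and with age in TgUmodC147W (0.111). The causes were not tested.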
